A study of Mus musculus with 32 samples.

Results

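The CXC chemokines described here are 9 genes, Cxcl1, Cxcl2, Cxcl5, Cxcl9, Cxcl10, Cxcl12, Cxcl13, Cxcl14 and Cxcl16, chosen by their symbols from the 31053 genes measured, and each was followed by the cell type that held its transcripts. Stromal vascular fraction cells, which remain when the mature adipocytes of fat are removed, came from the epididymal fat of C57BL/6 mice and were profiled by 10x Genomics 3′ single-cell RNA sequencing, which counts transcripts as unique molecular identifiers (UMIs). In CD169-DTR mice a receptor for diphtheria toxin is driven from Siglec1, which encodes the macrophage lectin CD169, and the toxin was given to remove tissue resident macrophages. The 4 groups were high fat diet (HFD) labelled DTR, HFD labelled WT, normal diet (ND) labelled DTR and ND labelled WT, with 1 library each. Diets lasted 16 weeks, and mice of every group, the WT ones too, had diphtheria toxin for 7 days. The sort took CD45+ and CD45- cells separately, gated out F4/80hi and Ly6Chi cells, and mixed the sorted fractions 1:1. The age of the mice and the number pooled in a library are not given in the sources used here, and macrophage and monocyte values describe only the cells that passed this gate.

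CXC chemokines are small secreted proteins that guide leukocytes along gradients, and they are grouped by receptor. Cxcl1, Cxcl2 and Cxcl5 carry the ELR motif, act on Cxcr2 and call in neutrophils, and the genes of this group are known targets of the NF-κB transcription factors. Cxcl9 and Cxcl10 act on Cxcr3 of T and NK cells and are induced by interferons. Cxcl12 acts on Cxcr4 and holds leukocytes and progenitors in stromal niches, Cxcl13 calls B cells through Cxcr5, Cxcl14 is a homeostatic chemokine of connective tissue and epithelium, and Cxcl16 is made as a membrane protein that binds Cxcr6.

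After filtering, the libraries held 5627 cells for HFD labelled DTR, 5120 for HFD labelled WT, 3599 for ND labelled DTR and 4982 for ND labelled WT, and the median cell had 9151, 7776, 6870 and 6159 UMIs in that order. Siglec1 went against the labels: it had 190 UMIs in HFD labelled DTR, against 51 UMIs in HFD labelled WT, and 113 UMIs in ND labelled DTR, against 5 UMIs in ND labelled WT. The groups are therefore named by their labels. The libraries shared 298 barcode sequences, and the copy with the most UMIs had a median of 59.4 times those of the copy with the fewest. Of the barcodes with over 10-fold fewer UMIs than the same barcode elsewhere, 250 lay in ND labelled WT, against 3 to 38 in each other library. Leaving these lower copies out of all 4 libraries changed the direction or the call of none of the 55 member and class pairs called below. Leaving out every shared barcode lost 2 of these calls, both higher in labelled DTR under ND (Cxcl2 in mesothelial cells and Cxcl10 in group 2 innate lymphoid cells). Only 15 vascular endothelial cells were found in HFD labelled DTR, against 445 to 907 in the other libraries, so endothelium there was left out of ratios and rankings.

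Cells were put in a class by fixed markers, and a level is the UMIs of a gene per 1000000 UMIs of its class in that library (counts per 1000000, CPM), with an exact Poisson 95% interval that covers counting error only. A ratio was called when it was past 2-fold, its counting interval excluded 0 on the log2 scale, the 2 libraries held at least 50 UMIs of the gene together and the class had at least 50 cells in each. With 1 library per group no test was possible, and no value here measures the spread between mice. Fewer expressing cells and less RNA per cell are not told apart by a CPM.

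Of the 9 genes, 6 lie on chromosome 5, in the GRCm38 annotation. Cxcl5 (90759360 to 90761624), Cxcl1 (90891241 to 90893115) and Cxcl2 (90903871 to 90905938) follow in this order on the plus strand, and of these Cxcl1 and Cxcl2 lie closest together. Cxcl9 (92321347 to 92328079) and Cxcl10 (92346638 to 92348889) lie together on the minus strand, and Cxcl13 (95956951 to 95961068) is on the plus strand. Cxcl12 is on chromosome 6 (117168535 to 117181367, plus), Cxcl14 on chromosome 13 (56288643 to 56296551, minus) and Cxcl16 on chromosome 11 (70453983 to 70459984, minus). RefSeq promoters on GRCm38.p6, 250 bases before to 50 after the start, were at hand for 7 of the 9 members. The promoters of Cxcl1 (chr5:90890995-90891294, plus strand), Cxcl2 (chr5:90903649-90903948, plus strand), Cxcl10 (chr5:92348840-92349139, minus strand) and Cxcl9 (chr5:92328030-92328329, minus strand) are printed because these genes have NF-κB and interferon control as known background and because the last 3 were called in fibroblasts under both diets. Capitals mark every match, on either strand, to the NF-κB consensus, to the interferon-stimulated response element, here GAAA and GAAA with any 2 bases between them, or to the gamma-activated site TTCNNNGAA.
Cxcl1: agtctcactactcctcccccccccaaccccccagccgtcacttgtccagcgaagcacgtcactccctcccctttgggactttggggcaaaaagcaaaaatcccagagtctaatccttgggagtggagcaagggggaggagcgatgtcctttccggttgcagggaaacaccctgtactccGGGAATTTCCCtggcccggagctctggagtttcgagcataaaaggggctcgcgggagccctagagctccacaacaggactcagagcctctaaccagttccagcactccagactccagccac
Cxcl2: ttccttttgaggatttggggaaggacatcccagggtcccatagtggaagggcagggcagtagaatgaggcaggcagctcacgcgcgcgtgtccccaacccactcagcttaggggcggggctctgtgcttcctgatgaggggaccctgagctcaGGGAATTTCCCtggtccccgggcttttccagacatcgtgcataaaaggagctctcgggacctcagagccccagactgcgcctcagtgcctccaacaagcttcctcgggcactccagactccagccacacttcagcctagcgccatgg
Cxcl10: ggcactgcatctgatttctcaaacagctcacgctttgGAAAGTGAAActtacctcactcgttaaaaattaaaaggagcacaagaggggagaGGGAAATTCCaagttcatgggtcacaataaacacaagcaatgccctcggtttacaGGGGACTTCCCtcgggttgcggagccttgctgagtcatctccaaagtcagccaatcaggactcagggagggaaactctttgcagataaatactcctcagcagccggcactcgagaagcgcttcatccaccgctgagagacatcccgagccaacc
Cxcl9: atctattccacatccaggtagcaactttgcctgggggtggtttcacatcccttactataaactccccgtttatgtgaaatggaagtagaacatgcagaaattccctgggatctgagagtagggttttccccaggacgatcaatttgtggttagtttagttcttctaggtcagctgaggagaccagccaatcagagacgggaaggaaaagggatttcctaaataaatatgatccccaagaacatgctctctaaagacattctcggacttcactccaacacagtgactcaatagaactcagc
Cxcl1 and Cxcl2 hold the same stretch, GGGAATTTCCC, which matches the NF-κB consensus on both strands with an overlap, 71 to 61 bases before the start in Cxcl1 and 97 to 87 bases before it in Cxcl2. Cxcl10 holds 2 NF-κB stretches, GGGAAATTCC and GGGGACTTCCC, the second with 2 overlapping matches, and the response element GAAAGTGAAA. Of the promoters not printed, that of Cxcl14 holds 1 response element and 1 gamma-activated site, and those of Cxcl12 and Cxcl13 hold no match. Cxcl9 holds no match to any of the 3 motifs in these 300 bases. Over all 32851 promoters of this length, 8.46% hold the NF-κB consensus, 3.44% the response element and 8.3% the gamma-activated site. A match describes letters only.

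Each member had its own pattern of source cells. Only Cxcl1, Cxcl5 and Cxcl14, 3 of 9, were highest in CPM in the same class in all 4 libraries, and that class was the fibroblasts and adipocyte progenitors. By number of UMIs, fibroblasts held 83.0% to 87.9% of Cxcl1, 93.1% to 96.8% of Cxcl14 and 79.1% to 97.4% of Cxcl5. For Cxcl9 the same share was 96.9% in HFD labelled DTR, against 10.8% in HFD labelled WT, and 55.9% in ND labelled DTR, against 6.06% in ND labelled WT. For Cxcl10 it was 72.5% in HFD labelled DTR, against 15.5% in HFD labelled WT, and 70.5% in ND labelled DTR, against 35.9% in ND labelled WT. Fibroblasts thus held most UMIs of both Cxcr3 ligands in the libraries labelled DTR and fewer than other cells together in those labelled WT. These shares move with the number of cells of each class that were sorted, and up to 42.2% of a member's UMIs, for Cxcl2 in ND labelled WT, lay in cells that passed no gate.

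**Figure D1:**
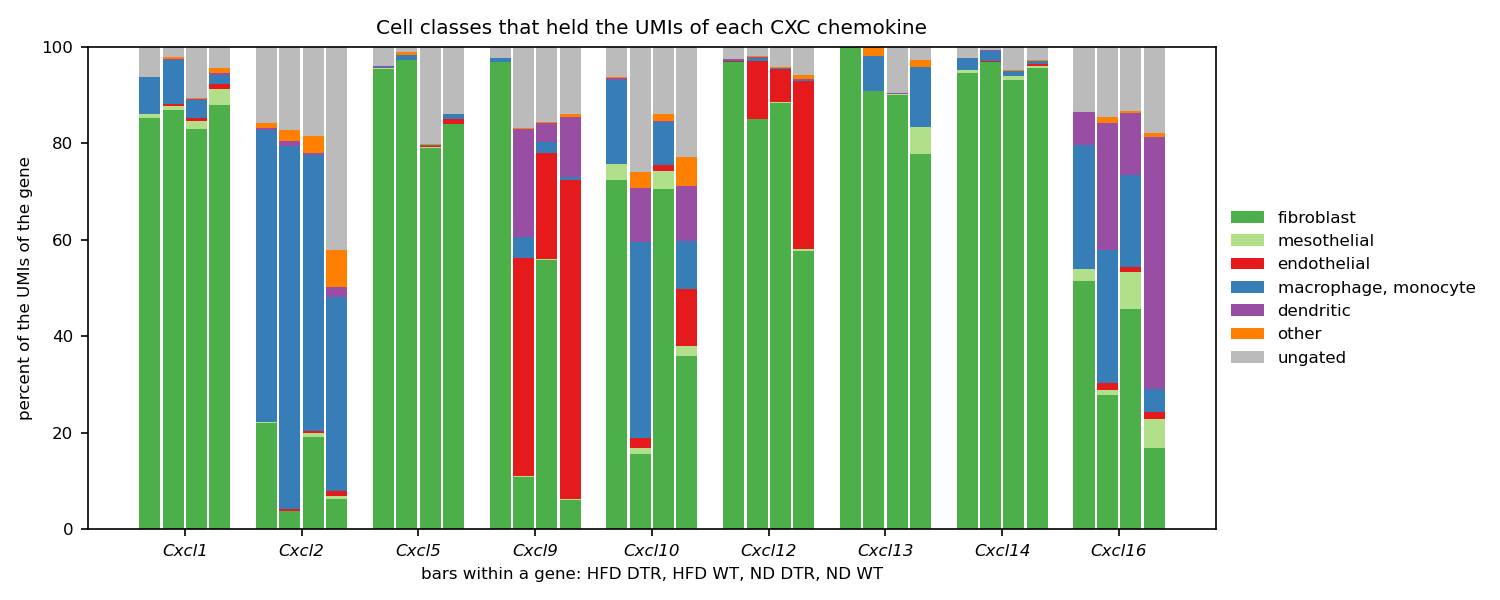
Percent of the UMIs of each CXC chemokine (vertical axis) held by 6 groups of gated cells and by ungated cells, in 4 bars per gene, 1 for each library. Cxcl1, Cxcl5, Cxcl13 and Cxcl14 are mostly fibroblast (green) in all 4 bars, and Cxcl9 is mostly fibroblast in both libraries labelled DTR only.

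**Figure D2:**
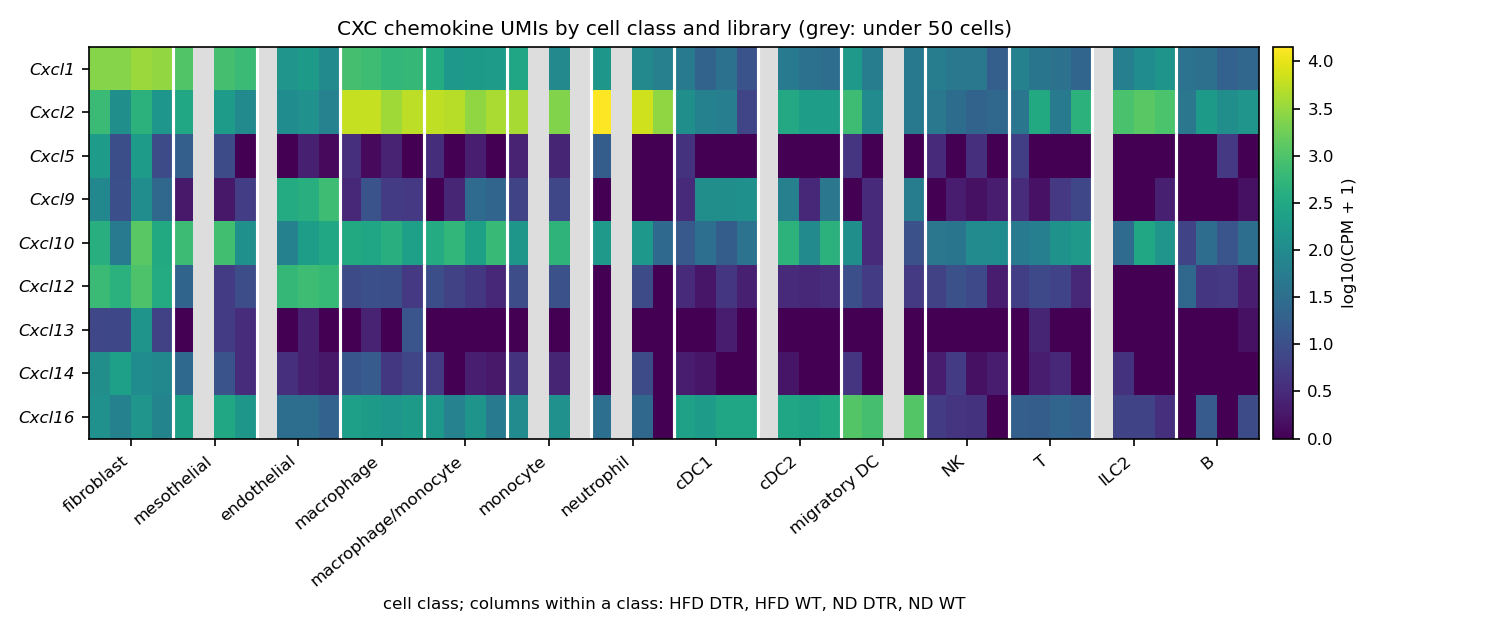
Level of each CXC chemokine, as log10(CPM + 1) by colour, in 14 cell classes (horizontal axis) and 4 libraries per class, with grey where a class had under 50 cells. Cxcl2 is brightest in macrophages, monocytes and neutrophils, Cxcl9 stands out in endothelial cells, and Cxcl16 in migratory dendritic cells.

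Among all member and class pairs, labelled DTR over labelled WT was called higher in 9 and lower in 5 of 35 pairs under HFD, where the same rule called 9.05% of all gene and class pairs higher and 3.2% lower. Under ND it was called higher in 14 and lower in 5 of 49 pairs, against 5.05% and 2.76% of all pairs. High fat over normal diet was called higher in 4 and lower in 6 of 36 pairs in the libraries labelled DTR, where the rule called 4.76% and 3.14% of all pairs. In the libraries labelled WT it was called higher in 4 and lower in 8 of 50 pairs, against 1.79% and 2.12% of all pairs. Between genotypes the members' shares were 25.7% higher and 14.3% lower under HFD, and 28.6% higher and 10.2% lower under ND. By diet they were 11.1% higher and 16.7% lower in labelled DTR, and 8.0% higher and 16.0% lower in labelled WT. With the main settings all of these were above the background, in both directions. The counts by diet were small, and the background under other settings was not computed. Each library enters 2 of these comparisons, so they are not independent. Fibroblasts carried 4 of the 9 higher pairs under HFD and 6 of the 14 under ND. Of all genes tested in fibroblasts, 16.4% were called higher under HFD and 6.57% under ND.

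Cxcl1, the neutrophil chemokine known as KC, had a high fibroblast level that differed little between libraries. It stood at 2527 CPM in HFD labelled DTR, 2498 CPM in HFD labelled WT, 3361 CPM in ND labelled DTR and 3007 CPM in ND labelled WT. The log2 ratio of labelled DTR over labelled WT was 0.02 (0.001 to 0.03) under HFD and 0.16 (0.14 to 0.18) under ND, and its HFD direction turned (-0.27) with TMM scaling. TMM, a scaling by the bulk of the genes, shifted all log2 ratios of a class by -0.15 to 0.29 over 41 classes and comparisons, and fibroblasts under HFD had the 0.29. Relative to that shift Cxcl2, Cxcl5, Cxcl9 and Cxcl10 stood at 2.25, 4.15, 2.96 and 2.77 by label under HFD, and Cxcl12, Cxcl14 and Cxcl16 at 0.31, -1.23 and 0.59. Cxcl1 was seen in 90.3% to 96.2% of fibroblasts, and in 64.8% to 76.2% when cells were thinned to 1000 UMIs. The thinned share in B cells, which should lack the gene, was 3.45% to 5.88%, at median depths of 2963 to 5884 UMIs against 9621 to 12899 UMIs in fibroblasts before thinning. Mesothelial cells, which line the fat pad, had 1070 CPM in HFD labelled DTR, 846 CPM in ND labelled DTR and 670 CPM in ND labelled WT. The 8 fibroblast markers summed in them to 10740, 20270 and 22040 CPM in that order, and their part was not tested. Macrophages had 860 CPM in HFD labelled DTR, 737 CPM in HFD labelled WT, 557 CPM in ND labelled DTR and 581 CPM in ND labelled WT.

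In several leukocyte classes Cxcl1 was low, and fibroblast transcripts were read beside it. In NK cells Cxcl1 had 55.9 CPM in HFD labelled DTR, 44.2 CPM in HFD labelled WT, 44.5 CPM in ND labelled DTR and 16.9 CPM in ND labelled WT. The 8 fibroblast markers summed in the same NK cells to 437, 278, 136 and 80.2 CPM in that order, with 0 to 1 of the 8 at 0. Type 1 dendritic cells, which cross-present antigen, had 50.1 CPM of Cxcl1 in HFD labelled DTR, against 20.2 CPM in HFD labelled WT, and 34.5 CPM in ND labelled DTR, against 10.7 CPM in ND labelled WT. The fibroblast markers summed there to 430, 125, 104 and 49.0 CPM in the same order. Migratory dendritic cells under HFD had 168 CPM in labelled DTR, against 56.9 CPM in labelled WT, and the fibroblast markers summed there to 431 and 168 CPM. Their part in the called ratios (1.31 under HFD and 1.69 under ND in type 1 dendritic cells, 1.39 under ND in NK cells and 1.56 under HFD in migratory dendritic cells) was not tested. Immediate early genes, of which 8 were read, are known to be induced by dissociation. Under HFD, 4 in type 1 and 5 in migratory dendritic cells were called higher in labelled DTR (median log2 1.09 and 1.69). Under ND it was 1 in type 1 dendritic cells and 1 in NK cells (0.08 and 0.64). Over all genes of these classes, the rule called 2.41% and 7.54% higher under HFD, and 2.47% and 4.7% under ND, in that order. The part of the immediate early genes was not tested either. In cells with both macrophage and monocyte markers Cxcl1 had 377.2 CPM in HFD labelled DTR, 163 CPM in HFD labelled WT, 180 CPM in ND labelled DTR and 192 CPM in ND labelled WT, with fibroblast markers at 437, 162, 109 and 81.0 CPM in the same order. Its log2 ratio by label under HFD (1.21) was 0.36 with a stricter gate and 0.25 with classes from graph clusters. Immediate early genes were called higher in 3 of 8 there by label under HFD and in 5 of 8 by diet in labelled DTR (median log2 0.48 and 1.45). Over all genes tested there, 8.59% and 3.15% were called higher in the same comparisons. By diet in labelled DTR, Cxcl1 was called higher in these cells (1.06) and in monocytes (275 CPM under HFD, against 88.4 CPM under ND). By diet in labelled WT it was called higher in NK cells (1.38) and lower in group 2 innate lymphoid cells (61.6 CPM under HFD, against 141 CPM under ND), where 5 cells held 76.2% of the ND UMIs. The fibroblast markers of these innate lymphoid cells went the other way by diet, at 348 CPM in HFD labelled WT, against 70.0 CPM in ND labelled WT.

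Cxcl2, the ELR chemokine MIP-2, was a gene of phagocytes, and its level in fibroblasts and in several other classes differed by label. Macrophages had 6183 CPM in HFD labelled DTR, 6103 CPM in HFD labelled WT, 3676 CPM in ND labelled DTR and 5471 CPM in ND labelled WT, with log2 ratios between genotypes of 0.02 under HFD and -0.57 under ND. Of the 126 macrophages of ND labelled WT, 45 had a barcode shared with another library. Of the 8 immediate early genes, 4 were called higher in macrophages of labelled DTR under HFD and 5 under ND. Over all macrophage genes tested, 11.8% were called higher under HFD and 12.8% under ND. Neutrophils, known both as a source and as a target of Cxcl2, had 14240 CPM in 73 cells of HFD labelled DTR, 5811 CPM in 37 cells of HFD labelled WT, 7228 CPM in 83 cells of ND labelled DTR and 2862 CPM in 54 cells of ND labelled WT. Their ratio was called under ND (log2 1.34, 1.12 to 1.55), and HFD labelled WT had too few neutrophils for a ratio. Group 2 innate lymphoid cells, tissue lymphocytes that make type 2 cytokines, also held Cxcl2, with 930 CPM in HFD labelled WT, 1237 CPM in ND labelled DTR and 957 CPM in ND labelled WT, and 65.4% of the UMIs in ND labelled DTR lay in 5 cells.

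In fibroblasts, Cxcl2 had 666 CPM in HFD labelled DTR, against 115 CPM in HFD labelled WT, and 460 CPM in ND labelled DTR, against 152 CPM in ND labelled WT. Both libraries labelled DTR were above both labelled WT. The log2 ratio was 2.54 (2.48 to 2.60) under HFD and 1.60 (1.52 to 1.68) under ND. The ND value rested on the gate and on few cells. It was 0.54 with a stricter gate, 1.16 without barcodes shared between libraries and 1.21 without the 5 cells richest in Cxcl2, which held 38.3% of its UMIs in ND labelled DTR. The lowest HFD value over the alternatives was 1.90. The 8 macrophage markers summed in these fibroblasts to 33.2 CPM in HFD labelled DTR, 35.5 CPM in HFD labelled WT, 27.4 CPM in ND labelled DTR and 24.0 CPM in ND labelled WT, and the 8 neutrophil markers to 77.0, 151, 135 and 244 CPM in the same order. None of these markers was at 0, and their part in the result was not tested. Mesothelial Cxcl2 had 194 CPM in ND labelled DTR, against 92.1 CPM in ND labelled WT, and its log2 ratio of 1.07 fell to 0.65 without shared barcodes.

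Cxcl2 also appeared in classes where a few cells decided the level. In T cells it had 41.2 CPM in HFD labelled DTR, against 328 CPM in HFD labelled WT, and 50.6 CPM in ND labelled DTR, against 466 CPM in ND labelled WT. Of the T cell UMIs, 5 cells held 77.6% in HFD labelled WT and 85.2% in ND labelled WT. The log2 ratio of -3.00 under HFD was -1.64 without such cells, and the ratio of -3.20 under ND was -0.63 when classes came from graph clusters. The 8 macrophage markers summed in these T cells to 31.5 CPM in HFD labelled DTR, 154 CPM in HFD labelled WT, 79.8 CPM in ND labelled DTR and 98.2 CPM in ND labelled WT, and their part was not tested. B cells under HFD (42.8 CPM in labelled DTR, against 179 CPM in labelled WT) and migratory dendritic cells under HFD (741 CPM in labelled DTR, against 98.4 CPM in labelled WT) were called on 5 cells that held 85.7% to 88.9% of the UMIs. In type 1 dendritic cells Cxcl2 was 59.5 CPM in ND labelled DTR, against 6.49 CPM in ND labelled WT, and 66.0 CPM in HFD labelled WT, against that same 6.49 CPM, of only 20 UMIs. The other called ratios of Cxcl2 by diet rested on few UMIs, in NK cells of labelled DTR (44.5 CPM under HFD, against 20.2 CPM under ND, from 39 UMIs each) and in migratory dendritic cells of labelled WT (98.4 CPM under HFD, against 47.7 CPM under ND, from 45 and 35 UMIs).

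Cxcl5, known as LIX and a ligand of Cxcr2, lay mostly in the fibroblast gate and had the largest log2 ratio by label under HFD among the 4 members called in fibroblasts there. It had 198 CPM in HFD labelled DTR (7857 UMIs in 554 cells), against 9.13 CPM in HFD labelled WT (185 UMIs in 23 cells). Under ND it had 189 CPM in ND labelled DTR (2652 UMIs in 196 cells), against 8.28 CPM in ND labelled WT (84 UMIs in 18 cells). Levels within a label were alike across diets, with log2 ratios of HFD over ND of 0.07 (0.01 to 0.13) in labelled DTR and 0.14 (-0.24 to 0.53) in labelled WT. The log2 ratio by label was 4.44 (4.23 to 4.66) under HFD and 4.51 (4.2 to 4.84) under ND. In the libraries labelled WT, 5 cells held 77.8% of the UMIs under HFD and 77.4% under ND, and without them the ratios were 6.36 and 6.27. A stricter gate gave 3.77 and 3.41. The share of fibroblasts with Cxcl5, thinned to 1000 UMIs, was 5.76% in HFD labelled DTR, against 0.347% in HFD labelled WT, and 7.12% in ND labelled DTR, against 0.490% in ND labelled WT, while no thinned B cell of any library held it. Ungated cells held 3.94% of the Cxcl5 UMIs in HFD labelled DTR, 1.05% in HFD labelled WT, 20.1% in ND labelled DTR and 14% in ND labelled WT. Mesothelial cells had 17.2 CPM in HFD labelled DTR and 7.82 CPM in ND labelled DTR, with 0 of the UMIs of ND labelled WT, which allows up to 1.74 CPM.

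Cxcl9, the interferon gamma induced ligand of Cxcr3, had its highest CPM in endothelium in 3 libraries, and its fibroblast level moved with the label. By number of UMIs, endothelium held 45.25% of it in HFD labelled WT and 66.1% in ND labelled WT. In ND labelled DTR endothelium held 22.0%, against 55.9% in fibroblasts. Endothelial cells had 352 CPM in HFD labelled WT, 396 CPM in ND labelled DTR and 738 CPM in ND labelled WT, where 589 of 907 cells held it. That level was lower under HFD than ND in labelled WT (log2 -1.07, -1.18 to -0.95, and -0.93 with equal weight per cell) and lower in ND labelled DTR than in ND labelled WT without reaching 2-fold (-0.90, -1.03 to -0.77). The 5 adipocyte transcripts followed in these cells summed to 201 CPM in HFD labelled WT, 2536 CPM in ND labelled DTR and 3537 CPM in ND labelled WT, and their part was not tested. Fibroblasts went the other way by label. They had 87.3 CPM in HFD labelled DTR, against 9.18 CPM in HFD labelled WT, and 109 CPM in ND labelled DTR, against 24.1 CPM in ND labelled WT. The log2 ratio was 3.25 (3.04 to 3.47) under HFD and 2.18 (1.99 to 2.38) under ND, with 5 cells holding 71.5% of the UMIs of HFD labelled WT and 4.77 under HFD without them. The 8 endothelial markers summed in these fibroblasts to 7.55 CPM in HFD labelled DTR, 14.7 CPM in HFD labelled WT, 19.3 CPM in ND labelled DTR and 21.1 CPM in ND labelled WT. Their part in the result was not tested.

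Dendritic cells were a further source of Cxcl9. Type 1 dendritic cells had 2.09 CPM in HFD labelled DTR (2 UMIs), against 113 CPM in HFD labelled WT, and 118 CPM in ND labelled DTR, against 119 CPM in ND labelled WT. Only HFD labelled DTR stood apart, with a log2 ratio of -5.76 (-8.81 to -3.89) to HFD labelled WT. A few cells carried the levels, since 5 cells held 88.2% of the UMIs in HFD labelled WT and 93.9% in ND labelled DTR, so no ratio remained without them. The same 2 UMIs set the ratio of HFD over ND in labelled DTR (-5.82, -8.88 to -3.93). Type 2 dendritic cells had 2.02 CPM in ND labelled DTR (1 UMI), against 43.3 CPM in ND labelled WT (log2 -4.42, -9.74 to -1.90). Macrophages under HFD had 2.05 CPM in labelled DTR, against 10.7 CPM in labelled WT, from 18 and 73 UMIs.

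Cxcl10, the interferon induced ligand IP-10 of Cxcr3, was spread over more classes than Cxcl9, and fibroblasts and mesothelial cells were higher in labelled DTR while several leukocyte classes were lower. Fibroblasts had 423 CPM in HFD labelled DTR, against 50.9 CPM in HFD labelled WT, and 1252 CPM in ND labelled DTR, against 333 CPM in ND labelled WT. Labelled DTR was above labelled WT within each diet, and ND was above HFD within each label. The log2 ratio by label was 3.05 (2.96 to 3.15) under HFD and 1.91 (1.86 to 1.96) under ND, and the log2 ratio of HFD over ND was -1.57 (-1.60 to -1.54) in labelled DTR and -2.71 (-2.81 to -2.61) in labelled WT. In HFD labelled WT 5 cells held 41.1% of the UMIs, and the HFD ratio was 3.69 without them. Mesothelial cells had 709 CPM in HFD labelled DTR (51 cells), 792 CPM in ND labelled DTR and 120 CPM in ND labelled WT, a log2 ratio of 2.72 (2.50 to 2.94) under ND.

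The leukocyte classes did not share a direction of Cxcl10 by label. Macrophages had 337 CPM in HFD labelled DTR, against 286 CPM in HFD labelled WT, and 395 CPM in ND labelled DTR, against 223 CPM in ND labelled WT, short of 2-fold. Group 2 innate lymphoid cells had 296 CPM in ND labelled DTR, against 148 CPM in ND labelled WT, on 5 cells that held 93.9% of the UMIs in labelled DTR. Type 2 dendritic cells had 93.0 CPM in ND labelled DTR, against 459 CPM in ND labelled WT (log2 -2.30, -2.76 to -1.88, and -4.72 without the 5 richest cells), and 490 CPM in HFD labelled WT. Cells with both macrophage and monocyte markers had 352 CPM in HFD labelled DTR, 567 CPM in HFD labelled WT, 231 CPM in ND labelled DTR and 621 CPM in ND labelled WT. Their ND ratio was called (-1.43, -1.61 to -1.24) but was -0.22 with classes from graph clusters. Type 1 dendritic cells were called lower in labelled DTR under both diets, with 13.6 CPM against 31.3 CPM under HFD and 15.5 CPM against 37.7 CPM under ND, and the HFD value was -0.06 with equal weight per cell. By diet, endothelial cells had 65.4 CPM in HFD labelled WT, against 308 CPM in ND labelled WT (log2 -2.23, -2.49 to -1.98). Monocytes, T cells and NK cells of HFD labelled DTR had 158, 48.4 and 43.3 CPM, against 498, 136 and 101 CPM in ND labelled DTR, and T cells, NK cells and group 2 innate lymphoid cells of HFD labelled WT had 61.5, 39.9 and 27.7 CPM, against 169, 104 and 148 CPM in ND labelled WT. All 6 were called lower under HFD, and in NK cells of labelled WT the sign turned (0.34, against -1.38) with equal weight per cell.

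**Figure D3:**
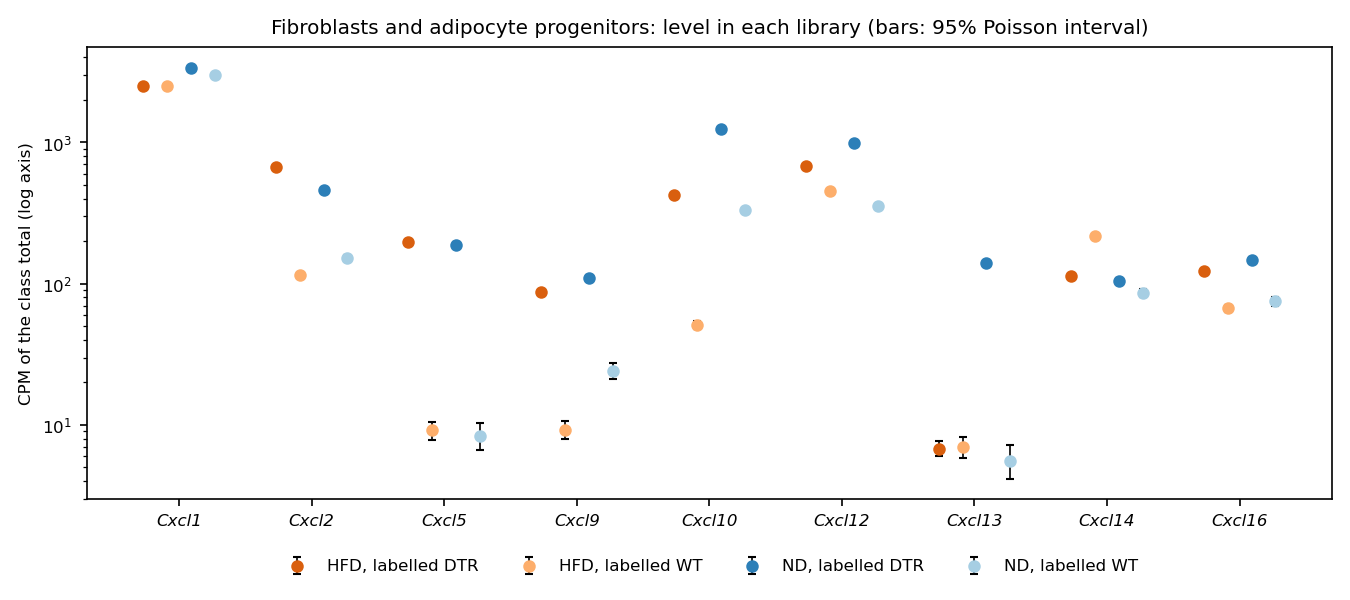
Level of the 9 chemokines in fibroblasts and adipocyte progenitors as CPM of the class total (vertical log axis), 1 point per library, with exact Poisson 95% intervals. Cxcl2, Cxcl5, Cxcl9, Cxcl10, Cxcl12 and Cxcl16 are higher in each library labelled DTR than in labelled WT on the same diet. Of these, Cxcl2, Cxcl5, Cxcl9 and Cxcl10 pass 2-fold in both diets. Cxcl1 differs little, and Cxcl13 is high in ND labelled DTR alone.

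Cxcl12, the niche chemokine that binds Cxcr4, came from fibroblasts and endothelium and stood at 24.5 CPM or less in leukocytes. Fibroblasts had 684 CPM in HFD labelled DTR, against 453 CPM in HFD labelled WT, and 997 CPM in ND labelled DTR, against 353 CPM in ND labelled WT. The log2 ratio was 1.5 (1.44 to 1.55) under ND and stayed under 2-fold under HFD (0.60, 0.56 to 0.63). Endothelial levels were close together, with 591 CPM in HFD labelled WT, 719 CPM in ND labelled DTR and 603 CPM in ND labelled WT (log2 0.25 between labels under ND and -0.03 between diets in labelled WT). Fibroblasts were above endothelium in ND labelled DTR and below it in both libraries labelled WT. In HFD labelled DTR the 15 endothelial cells had 960 CPM, from 42 UMIs. Group 2 innate lymphoid cells had 0 UMIs of Cxcl12 in all 3 libraries with at least 50 of them, and macrophages had 3.83 to 9.25 CPM.

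Cxcl13, which calls B cells to lymphoid structures through Cxcr5, was a rare fibroblast transcript. It had 6.79 CPM in HFD labelled DTR, against 6.96 CPM in HFD labelled WT, and 140 CPM in ND labelled DTR, against 5.52 CPM in ND labelled WT. ND labelled DTR alone was high, with 1959 UMIs in 103 of 1080 fibroblasts, against 269 UMIs in 36 cells, 141 UMIs in 27 cells and 56 UMIs in 20 cells in the other libraries in the order above. In ND labelled DTR 5 cells held 62.9% of these UMIs and a single cell of that library 610 UMIs. The log2 ratio under ND was 4.66 (4.28 to 5.07), 4.79 without the 5 richest cells of each library, 3.62 with a stricter gate and 2.54 with equal weight per cell. The ratio of HFD over ND in labelled DTR was -4.36 (-4.55 to -4.18), and -2.73 with a stricter gate. Thinned to 1000 UMIs, 3.37% of fibroblasts held Cxcl13 in ND labelled DTR and 0.255% to 0.405% elsewhere, against 0 in B cells of all libraries. Outside fibroblasts it stayed at 0 to 11.5 CPM.

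Cxcl14, a chemokine of connective tissue and epithelium, was a fibroblast gene with little difference by label under ND. It had 113 CPM in HFD labelled DTR, against 217 CPM in HFD labelled WT, and 104 CPM in ND labelled DTR, against 85.7 CPM in ND labelled WT. HFD labelled WT was the high library. The log2 ratio of HFD over ND in labelled WT was 1.34 (1.23 to 1.45), against 0.11 (0.03 to 0.20) in labelled DTR, and whether the 2 ratios differ beyond variation between mice could not be tested. By label the HFD ratio was -0.94 (-1.0 to -0.88), just under 2-fold and past it (-1.23) relative to the TMM shift. Macrophages had 11.9 CPM in HFD labelled DTR and 3.78 CPM in ND labelled DTR, and the 8 fibroblast markers summed in them to 365 and 117 CPM, which was not tested as a part of that called ratio.

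Cxcl16, the membrane chemokine bound by Cxcr6, had its highest CPM in migratory dendritic cells in 3 libraries, but by number of UMIs fibroblasts held 51.4% of it in HFD labelled DTR, 27.7% in HFD labelled WT, 45.7% in ND labelled DTR and 16.8% in ND labelled WT, against 6.80%, 26.2%, 12.9% and 52.2% in all dendritic cells. Migratory dendritic cells, which carry antigen to lymph nodes, had 1112 CPM in HFD labelled DTR, 851 CPM in HFD labelled WT and 1120 CPM in ND labelled WT, and 802 CPM in the 35 cells of ND labelled DTR. No pair of libraries was 2-fold apart. Lower levels were found in type 1 and type 2 dendritic cells, the first with 239 CPM in HFD labelled DTR, 195 CPM in HFD labelled WT and 281 CPM in each ND library, the second with 283 CPM in HFD labelled WT, 247 CPM in ND labelled DTR and 328 CPM in ND labelled WT. Mesothelial cells had 229 CPM in HFD labelled DTR, 298 CPM in ND labelled DTR and 160 CPM in ND labelled WT, and in ND labelled DTR they were the highest class with at least 50 cells, with an interval that overlapped that of type 1 dendritic cells. Fibroblasts had 124 CPM in HFD labelled DTR, against 67.0 CPM in HFD labelled WT, and 147 CPM in ND labelled DTR, against 74.8 CPM in ND labelled WT, which stayed just under 2-fold in both diets (log2 0.88, 0.80 to 0.97, and 0.97, 0.85 to 1.09). In cells with both macrophage and monocyte markers it was called higher in labelled DTR, with 166 CPM against 69.0 CPM under HFD and 142 CPM against 51.5 CPM under ND, and fell under 2-fold with classes from graph clusters (0.53 and 0.78). The 8 macrophage markers of these cells summed to 3788 CPM in HFD labelled DTR, 2068 CPM in HFD labelled WT, 3736 CPM in ND labelled DTR and 2040 CPM in ND labelled WT.

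**Figure D4:**
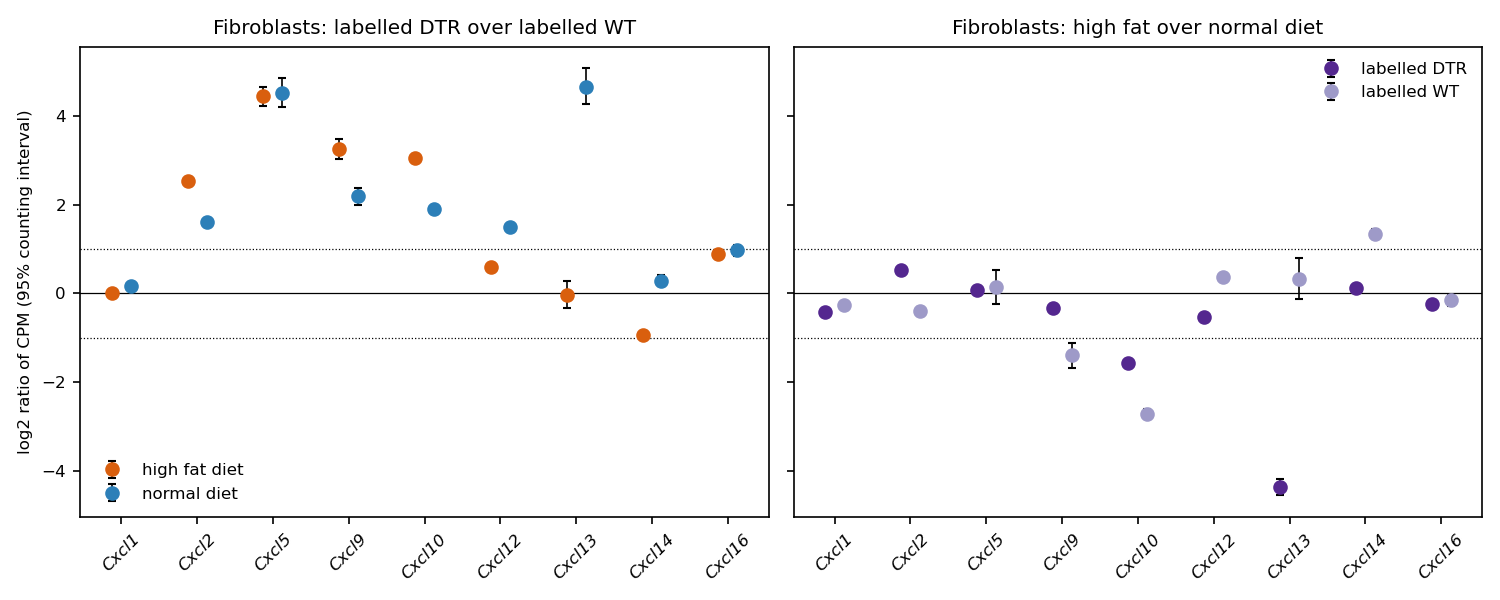
Log2 ratio of CPM in fibroblasts for each chemokine, on the left labelled DTR over labelled WT in each diet and on the right high fat over normal diet in each label, with 95% counting intervals and dotted lines at 2-fold. Cxcl2, Cxcl5, Cxcl9 and Cxcl10 lie above the upper dotted line in both diets on the left, and Cxcl10 lies below the lower line for both labels on the right.

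Within fibroblasts the members split along the axis from early progenitors, marked by Dpp4 and Pi16, to committed preadipocytes, marked by Col15a1. The split used marker lists chosen with earlier results of these data known, and it is a range cut from a score, not a pair of types. It gave 244, 172, 109 and 167 early cells and 1948, 1383, 845 and 771 committed cells in HFD labelled DTR, HFD labelled WT, ND labelled DTR and ND labelled WT. Cxcl14 lay in committed cells, with 157, 267, 136 and 116 CPM there in the same library order, against 4.07, 0.57, 0 and 0.58 CPM in early cells, where 0 UMIs in ND labelled DTR allow 3 UMIs. Cxcl12 followed the same side, with 882, 527, 1231 and 437 CPM in committed cells, against 131, 50.5, 96.3 and 81.2 CPM in early cells. The committed cells had more of both genes in all 4 libraries, with log2 ratios of early over committed for Cxcl12 from -3.68 to -2.43. Cxcl5, Cxcl9 and Cxcl16 were also higher in committed cells in all 4 libraries. Their log2 ratios ran from -2.18 to -0.32, from -3.29 to -0.75 and from -1.65 to -0.94. Early cells of HFD labelled WT held 0 UMIs of Cxcl5 and 2 UMIs of Cxcl9. Cxcl2 lay on the other side, with 847, 315, 634 and 336 CPM in early cells, against 609, 92.1, 408 and 94.2 CPM in committed cells, and log2 ratios from 0.48 to 1.83.

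The ratios by label were then read inside each range. In committed cells, labelled DTR over labelled WT gave log2 ratios of 2.73 under HFD and 2.11 under ND for Cxcl2, 4.86 and 4.05 for Cxcl5, 3.05 and 2.18 for Cxcl9, and 3.01 and 1.65 for Cxcl10. In early cells the same ratios were 1.43 and 0.91 for Cxcl2, 2.49 and 3.06 for Cxcl10, 4.81 under ND for Cxcl5 (360 UMIs in HFD labelled DTR, against 0 UMIs in HFD labelled WT), and 5.60 and 1.69 for Cxcl9, with 2 UMIs in HFD labelled WT. All of these had the direction of the whole class. Cxcl12 under ND was 1.5 (1.44 to 1.55) in committed cells and 0.25 (-0.09 to 0.58) in early cells. Cxcl13 in early cells had 392 CPM in ND labelled DTR, against 4.06 CPM in ND labelled WT. The value in ND labelled DTR summed 652 UMIs over 109 cells. A single cell of that library held 610 UMIs of Cxcl13, and its range was not read out. Under HFD Cxcl13 had 12.7 CPM in early cells of labelled DTR, against 48.3 CPM in labelled WT. Its direction by label turned between the diets there, but a single cell held 81 of the 85 UMIs in early cells of HFD labelled WT.

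**Figure D5:**
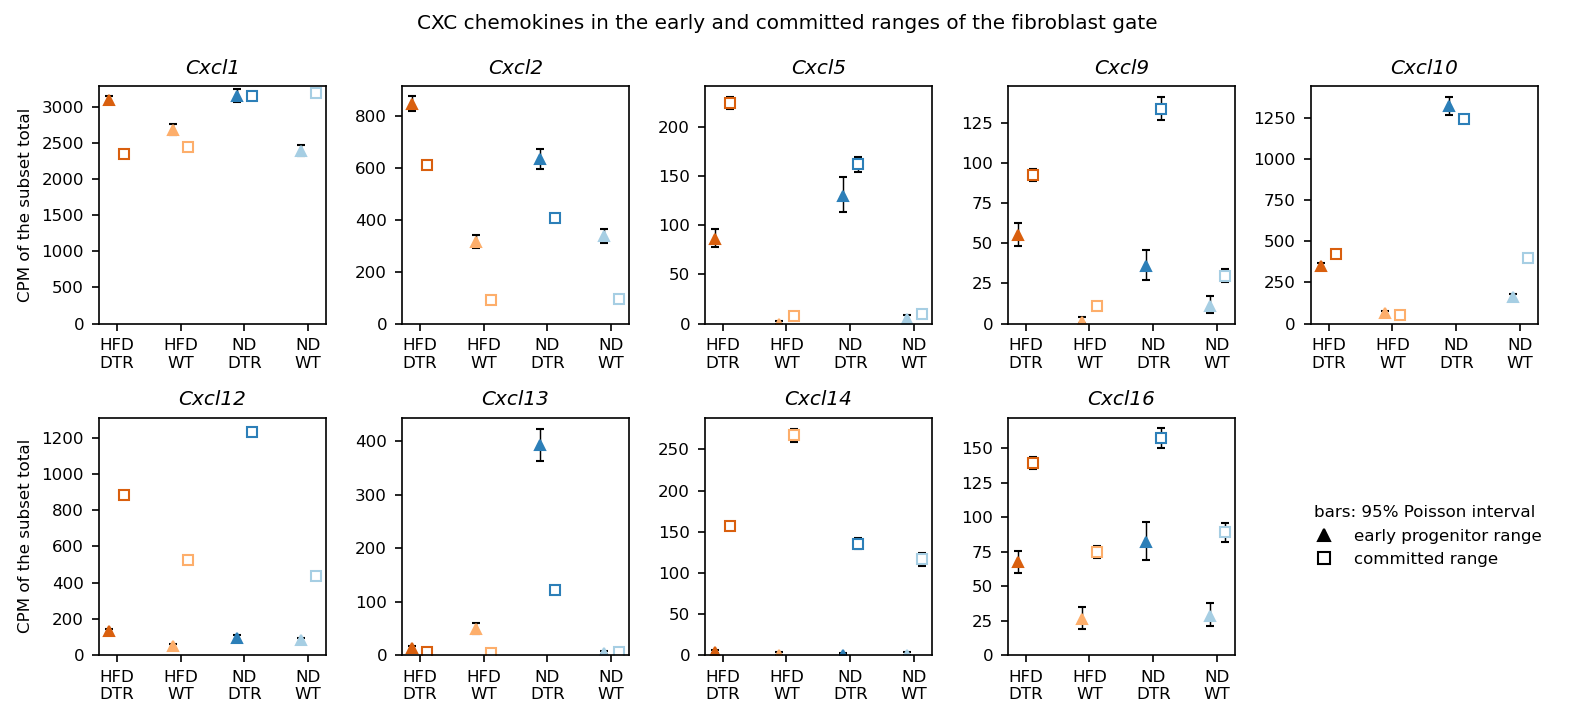
CPM of each chemokine (vertical axes, each from 0) in the early progenitor range (filled triangles) and the committed range (open squares) of the fibroblast gate, by library, with exact Poisson 95% intervals. Cxcl5, Cxcl9, Cxcl12, Cxcl14 and Cxcl16 are higher in committed cells in all 4 libraries, and Cxcl2 is higher in early cells in all 4.

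Pairs of members were also counted in the same fibroblasts, thinned to 5000 UMIs. Cxcl9 and Cxcl10 were found together in 148 of 2572 cells of HFD labelled DTR, where the product of their shares gives 68.5 cells, and in 71 of 962 cells of ND labelled DTR, where it gives 46.1 cells. Cxcl2 and Cxcl5 were together in 169 cells (product 113) and 58 cells (product 33.5) of the same libraries. Pairs of members with different receptors were above the product there too. Cxcl5 and Cxcl9 were together in 71 cells (product 36.5) and 25 cells (product 16.0). Cxcl5 and Cxcl10 were together in 163 cells (product 91.5) and 84 cells (product 65.5). Cxcl2 and Cxcl12 were together less often than the product in all 4 libraries, with 513 cells against 575 in HFD labelled DTR, 153 against 170 in HFD labelled WT, 175 against 187 in ND labelled DTR and 67 against 87.5 in ND labelled WT. Cxcl1, present in most fibroblasts, sat near the product with Cxcl12 (ratios of 0.993 to 0.999). These counts describe cells of single libraries and rest on cells of unequal type.

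Genes with the most similar pattern were ranked by Pearson r of log2(CPM + 1) over the 48 class and library sums with at least 50 cells, among 12956 genes, and sums of 1 library share its depth and free RNA. Cxcl2 was most like its relative Cxcl3 (r = 0.871), then Acod1 (0.859), the itaconate enzyme of activated macrophages. Cxcl1, Cxcl2 and Cxcl3 are related in sequence, and no label or header says how reads that fit more than 1 of them were counted, so their separate values are uncertain to that extent. Genes like Cxcl1 included Ctsl (0.879), the lysosomal protease cathepsin L, and Pdpn (0.869), and the first was Adamts19 (0.834) for Cxcl5, Neurl1b (0.798) with Itga1 (0.798) for Cxcl9, and Sod2 (0.759), the mitochondrial superoxide dismutase, for Cxcl10. Cxcl12 followed Fign (0.904) and Tbx3 (0.901), Cxcl13 followed Serpina3i (0.838), Col6a4 (0.827) and Ccl19 (0.812), Cxcl14 followed Mfap2 (0.871), a microfibril protein, and Cxcl16 followed Zfp516 (0.847). Between members, the highest r was 0.845 for Cxcl1 and Cxcl14, and Cxcl9 and Cxcl10 had only 0.191.

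Other genes of the same pathways were read in fibroblasts from lists. Of 16 NF-κB feedback and target genes, 4 were called higher in labelled DTR under HFD and 1 under ND, with none lower. Over all fibroblast genes tested, 16.4% were called higher and 3.80% lower under HFD, and 6.57% and 2.95% under ND. Under HFD the 4 were Tnfaip3, an inhibitor of NF-κB signalling (105 CPM, against 35.2 CPM in labelled WT), Nfkb2 (103 CPM, against 34.9 CPM), Relb (121 CPM, against 45 CPM) and Icam1, an adhesion molecule (504 CPM, against 214 CPM). Under ND it was Csf3, the neutrophil growth factor G-CSF (26.9 CPM in labelled DTR, against 7.20 CPM in labelled WT). The list's median log2 ratio was 0.21 under HFD and 0.41 under ND, beside 0.31 and 0.11 for all genes. Of the 8 immediate early genes, 1 was called higher in fibroblasts under HFD and 0 under ND, with medians of 0.01 and -0.15.

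Type I interferon target genes were higher in labelled DTR in fibroblasts of both diets. Of 12 type I interferon targets, 11 were called higher under HFD and 11 under ND, with medians of 2.82 and 2.41 and none lower. Rsad2, the antiviral enzyme viperin, had 259 CPM in ND labelled DTR, against 15.6 CPM in ND labelled WT, and Mx1 had 11.8 CPM, against 0.0986 CPM from 1 UMI (log2 6.90, 4.40 to 12.21). Isg15 had 453 CPM in HFD labelled DTR, against 40.5 CPM in HFD labelled WT. Of the type I targets, 4 of 12 in labelled DTR and 5 of 11 in labelled WT were called lower under HFD, and of the NF-κB genes 6 and 2 of 16, with none higher. Over all fibroblast genes 4.63% in labelled DTR and 4.00% in labelled WT were called lower.

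The remaining lists held few calls. Cxcl3, the closest relative of Cxcl2 among the other CXC ligands, had 19.7 CPM in HFD labelled DTR, against 9.48 CPM in HFD labelled WT, and 19.2 CPM in ND labelled DTR, against 5.42 CPM in ND labelled WT, and was called higher by label in both diets (log2 1.06 and 1.82). Pf4, platelet factor 4, was called higher by diet in labelled WT, at 2.32 CPM under HFD against 0.592 CPM under ND. Of 9 genes tested that form the Cxcl12 niche or cleave or bind Cxcl12 and Cxcl14, 0 were called higher and 1 lower by label under HFD, and 1 higher and 1 lower under ND. The lower gene under HFD was Kitl, the stem cell factor (20.8 CPM in labelled DTR, against 58.1 CPM in labelled WT). Under ND Mmp3, a matrix protease, was higher (26.4 CPM in labelled DTR, against 3.35 CPM in labelled WT) and Dpp4, which cleaves Cxcl12 and Cxcl10 and also marks the early range, was lower (29.4 CPM in labelled DTR, against 61.7 CPM in labelled WT). By diet Mmp3 was called higher under HFD in labelled WT (149 CPM, against 3.35 CPM under ND) and in labelled DTR (91.2 CPM, against 26.4 CPM under ND). In labelled DTR Tgfb1, transforming growth factor beta 1, was also called higher (76.8 CPM under HFD, against 29.9 CPM under ND) and Kitl lower (20.8 CPM under HFD, against 63.0 CPM under ND). Adam10 and Adam17, the proteases that shed Cxcl16, were not called in any comparison, with 28.1 to 40.5 CPM and 42.9 to 80.9 CPM.

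Receptor transcripts were found in the leukocytes that these chemokines are known to call. Cxcr2 had 892 CPM in neutrophils of HFD labelled DTR, 776 CPM in ND labelled DTR and 763 CPM in ND labelled WT. Cxcr3 lay in T cells (167, 118, 196 and 110 CPM in HFD labelled DTR, HFD labelled WT, ND labelled DTR and ND labelled WT) in NK cells (95.8, 49.6, 82.8 and 45.2 CPM) and in type 1 dendritic cells (77.2, 56.1, 36.9 and 28.6 CPM). Cxcr4 had 159 CPM in neutrophils of HFD labelled DTR, 437 CPM in ND labelled DTR and 394 CPM in ND labelled WT, and 98.3 CPM or less in the other classes. Cxcr5 lay in B cells with 154 to 174 CPM. Cxcr6 lay in group 2 innate lymphoid cells, with 702 CPM in HFD labelled WT, 1279 CPM in ND labelled DTR and 783 CPM in ND labelled WT, and in T cells with 245 to 411 CPM. Fibroblasts themselves held Ackr3, the scavenger of Cxcl12, with 137 CPM in HFD labelled DTR, against 248 CPM in HFD labelled WT, and 199 CPM in ND labelled DTR, against 303 CPM in ND labelled WT. Ackr3 was thus lower in fibroblasts of each library labelled DTR (log2 -0.86 under HFD and -0.61 under ND), short of 2-fold. Of the 2 receptor genes with enough UMIs in fibroblasts only Ackr1, which binds many chemokines, was called lower (-1.14 and -1.12). Mesothelial cells also held Ackr3, with 41.1 CPM in HFD labelled DTR, 174 CPM in ND labelled DTR and 247 CPM in ND labelled WT.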

How the data were processed

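Single cells were sequenced with 10x Genomics 3′ chemistry. The deposited matrix holds UMI counts per gene and cell, which the authors made with Cell Ranger 3.1.0 on mm10, per the submitters' processing notes. The 32 sample records are 8 index and lane runs of each of 4 libraries, so n = 1 library per group, and barcode suffixes were assigned by the order of the deposited list of libraries. Value columns left unused numbered 0.

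Kept cells had 300 or more detected genes and no more than 10% mitochondrial counts. Doublets were removed per library with Scrublet at an expected 5.4%, which marked 0.690% to 1.37% of cells. A cell entered 1 of 18 classes when at least 3 markers were found and the marker score was at least 0.15. The next class had to score at most 0.6 of the best. A mesothelial cell was also kept when that next class was fibroblast and the class after it scored at most 0.6 of the best. Cells whose best classes were macrophage and monocyte formed a further mixed class by the same rule. With these, 80.8% to 86.6% of cells passed. The libraries held 33390225 to 64766718 UMIs. UMIs were summed per class and library. Levels have exact Poisson and ratios conditional binomial 95% intervals, and no test across mice was possible. Shares were compared after thinning cells to 1000 UMIs. A count of 0 was read against a floor of 3 UMIs.

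The named genes were the 9 members, the 3 genes most similar to each member (some of them are given), and in pathway lists the called genes where 5 or fewer, otherwise those among the 2 with the largest ratio. Members, lists and subset markers were chosen with earlier results of these data known. 1 list and 1 similar gene are not reported here. The ratio step was tested on simulated counts. Effects of 10 alternative settings, and of 2 more chosen after seeing the data (without shared barcodes, without their lower copies), are reported in the closing section. Python 3.11.15, scanpy 1.11.5, numpy 2.4.6, pandas 2.3.3 and scipy 1.17.1 were used.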

Additional observations from a re-analysis of the deposited data

How the results depend on the processing

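Of 601 values of the 55 called member and class pairs under 12 alternatives, 497 stayed inside the main counting interval of the ratio. Another 103 moved outside it with the same sign and 1 reversed, and the cause was not tested in each case. Whether a pair was still called was not part of this count. Pairs that could no longer be compared gave no value. Of the 55, 34 remained with at least 200 UMIs, 37 without the 5 richest cells and 41 with the stricter gate. The reversed value was Cxcl10 in NK cells by diet in labelled WT, 0.34 with equal weight per cell against -1.38. Most moves came with equal weight per cell (22), a stricter gate (20), removal of the 5 richest cells (20) and graph clusters (19). Counts of called pairs moved past 1.5-fold as follows. Lower by label under ND was 5, but 1 with the stricter gate and 3 with at least 200 UMIs. Lower by label under HFD was 5, but 9 with graph clusters, 3 with equal weight, 2 with at least 200 UMIs and 2 without the 5 richest cells. Higher by diet in labelled WT was 4, but 7 with the stricter gate, 10 with graph clusters, 8 with equal weight, 1 with at least 200 UMIs and 7 without shared barcodes. Higher by diet in labelled DTR was 4, but 7 with graph clusters and 2 with at least 200 UMIs, and lower by diet in labelled WT was 8, but 5 with at least 200 UMIs. Members with the same first class in all libraries numbered 3, but 4 with equal weight and 4 without the 5 richest cells. Without any shared barcode the fibroblast log2 ratios by label under ND were 1.16 for Cxcl2 (1.60 with them), 1.78 for Cxcl10 (1.91) and 1.58 for Cxcl12 (1.5), those by diet in labelled DTR were -1.43 for Cxcl10 (-1.57) and -3.81 for Cxcl13 (-4.36), and the 2 lost calls under ND were 0.65 for Cxcl2 in mesothelial cells (1.07) and 0.99 for Cxcl10 in group 2 innate lymphoid cells (1.0). A level of 0 is limited by the UMIs of its class, as by the 15 endothelial cells of HFD labelled DTR. No paired analysis was possible because each group is 1 library.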
